A study of Mus musculus with 4 samples.

Results

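The genes described here are the 9 enzymes and essential partners that write and remove methyl groups on DNA: Dnmt1, Uhrf1 and Hells for maintenance, Dnmt3a and Dnmt3b for de novo methylation, and Tet1, Tet2, Tet3 and Tdg for demethylation. They were chosen by name from the 32285 genes of the files, with no measured value as the rule but with earlier results of these data known. C3H10T1/2 cells, a cloned mouse line of mesenchymal progenitor cells (MPC), had been profiled by droplet single-cell RNA-seq with 1 library for each of 4 conditions. All cells carried a puromycin-selected lentiviral transgene for human histone H3.1 with HA and FLAG tags under the EF1 promoter, either wild type (H3WT) or with arginine 26 replaced by cysteine (H3R26C), and they kept their own H3 genes. They had received the vehicle DMSO or 3 µM of 5-Azacitidine (5-Aza) for 24 h, and the 5-Aza cells were harvested on day 28. The day of harvest of the DMSO cells is not stated, so the treatment and the time in culture cannot be told apart. The transgene is not in the mouse reference, so the genotype labels were not checked against the counts. With 1 library per condition no difference has a replicate check and no test was made.

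When DNA is copied, the new strand lacks methyl groups. UHRF1 recognizes the sites methylated on only the old strand and brings in DNMT1, which restores the mark, while HELLS, a chromatin remodeler also called LSH, opens packed chromatin to the machinery. DNMT3A and DNMT3B place methyl groups on unmethylated sites. TET1, TET2 and TET3 oxidize 5-methylcytosine, and TDG cuts out the most oxidized forms so that repair can insert an unmodified cytosine. 5-Aza is a cytidine analog that, once built into DNA, traps and depletes DNMT proteins, and in this line a short exposure leads to muscle and fat cells weeks later.

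Cells with at least 5000 UMIs (unique molecular identifiers, counts of distinct RNA molecules), at least 1500 genes and at most 20% mitochondrial UMIs were kept, 22049 in all and 3710 to 7619 per library. Their UMIs summed to between 84060490 and 110712425 per library. The median per cell was 22420 for H3WT and 16598 for H3R26C after DMSO, and 13149 and 13123 after 5-Aza. Low-cycling cells had at most 1 UMI over Mki67, Top2a, Cdk1, Ccnb2 and Rrm2, and the other kept cells are called cycling. Low-cycling cells made up 89.2% of H3WT and 86.2% of H3R26C cells with DMSO, and 87.6% and 71.8% with 5-Aza. All 5 mesenchymal progenitor markers were above 1 CPM in every library, and the 12 skeletal muscle markers summed to 16.1 to 22.8 CPM with DMSO, where 1 to 2 of them passed 1 CPM, and to 1531 to 2022 CPM with 5-Aza, where all 12 did. Adipocyte markers summed to 189 to 330.2 CPM, smooth muscle markers to 46.1 to 101 CPM, osteoblast markers to at most 25.2 CPM, and endothelial and blood markers to at most 10.6 and 14.0 CPM. Of the barcodes of kept cells, 243 occurred in more than 1 library, and leaving these out changed no count of members given below. Levels are counts per 1000000 (CPM), with the UMIs of a gene summed over the cells of a library and scaled to all UMIs of the same cells, and intervals are exact 95% intervals that cover counting error only. A gene is counted as higher or lower where 2 libraries differed by at least 1.5-fold.

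The promoters of the 9 genes were searched because Uhrf1 and Hells followed the cycling genes, as described below. The letters TTTCCCGC and TTTGGCGC, forms of the site bound by E2F factors, which switch on genes for DNA replication, were sought on both strands in the 250 bases before each RefSeq start (GRCm38.p6). All 9 genes matched, with 14 windows. Other forms of the E2F site were not sought, so a window without a match may still hold one of them. For the letters sought, only the Hells window held a match, on the gene's own strand. It is shown with the 8 matching bases in capitals:

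Hells, chr19:38930917-38930946, plus strand: gaccaccgggtTTTCCCGCgaaagagaagc

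The match begins 62 bases before the RefSeq start and 13 bases after the outermost start of Hells in GENCODE M21. Either motif was found in 1.30% of all 32851 windows (0.895% with the first and 0.417% with the second). A match in letters does not show that a factor binds there, and its absence from the other windows says nothing of E2F.

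Dnmt1 (ENSMUSG00000004099, chromosome 9, 20907209 to 20959888, minus strand), the maintenance methyltransferase and the main target of 5-Aza, was close to level across the low-cycling cells. Over all kept cells it stood at 38.7 CPM (37.4 to 40.1) in H3WT with DMSO, 39.0 (37.7 to 40.4) in H3WT with 5-Aza, 51.7 in H3R26C with DMSO and 46.1 in H3R26C with 5-Aza. In low-cycling cells the levels were 28.5, 29.3, 32.9 and 28.4 CPM in the same order. The first ordering put both H3R26C libraries above both H3WT libraries. In low-cycling cells H3R26C with DMSO was the highest and the other 3 libraries differed by no more than counting error. With 5-Aza, low-cycling Dnmt1 was at 1.03 of the DMSO level in H3WT (0.967 to 1.09) and at 0.862 in H3R26C (0.811 to 0.916). No Dnmt1 ratio passed 1.5-fold in either set of cells.

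Uhrf1 (ENSMUSG00000001228, chromosome 17, 56303321 to 56323486, plus strand), which directs DNMT1 to newly copied DNA, was at 14.7 CPM in H3WT with DMSO, 13.7 in H3WT with 5-Aza, 24.98 in H3R26C with DMSO and 25.8 in H3R26C with 5-Aza over all kept cells. The H3R26C libraries were higher by 1.703-fold with DMSO (1.59 to 1.83) and by 1.89-fold with 5-Aza (1.76 to 2.02). Most of this RNA lay in cycling cells. In low-cycling cells the same libraries held 1.28, 2.34, 2.66 and 4.31 CPM, from 95, 166, 180 and 305 UMIs. There, Uhrf1 was higher with 5-Aza by 1.83-fold in H3WT (1.42 to 2.39) and by 1.62-fold in H3R26C (1.34 to 1.96). H3R26C was higher than H3WT by 2.09-fold with DMSO (1.62 to 2.71) and by 1.84-fold with 5-Aza (1.52 to 2.24).

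The cycling genes that remained in low-cycling cells were also compared. Like Uhrf1, the gate genes were lowest in H3WT with DMSO and highest in H3R26C with 5-Aza. The 5 gate genes together came to 8.93 CPM in H3WT with DMSO, 13.1 in H3WT with 5-Aza, 10.4 in H3R26C with DMSO and 21.8 in H3R26C with 5-Aza, and 11 S-phase genes outside the gate to 89.0, 97.9, 105 and 104 CPM. The gate is a limit in raw UMIs, and the median depth of the libraries differs as given above. The part of these values, and of free RNA in the droplets, in the level of Uhrf1 was not tested. With the gate set after each cell was thinned to 5000 UMIs, the 5-Aza ratio of Uhrf1 in H3WT was 1.23, below the 1.5-fold limit.

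Hells (ENSMUSG00000025001, chromosome 19, 38930915 to 38971051, plus strand), the remodeler whose promoter window is shown above, differed between all 4 libraries by more than counting error over all kept cells. It was at 13.7 CPM in H3WT with DMSO, 18.7 in H3WT with 5-Aza, 24.6 in H3R26C with DMSO and 36.3 in H3R26C with 5-Aza. In low-cycling cells the levels were 4.43, 7.23, 7.50 and 10.2 CPM, the same order, with the middle pair within counting error of each other. Low-cycling Hells was higher with 5-Aza by 1.63-fold in H3WT (1.42 to 1.88) and by 1.37-fold in H3R26C (1.22 to 1.53). H3R26C was higher than H3WT by 1.69-fold with DMSO (1.47 to 1.95) and by 1.42-fold with 5-Aza (1.26 to 1.59). With the gate set after thinning, the 5-Aza ratio of Hells was 1.46 in H3WT and 1.71 in H3R26C. Its genotype ratio with 5-Aza was then 2.04.

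**Figure D1:**
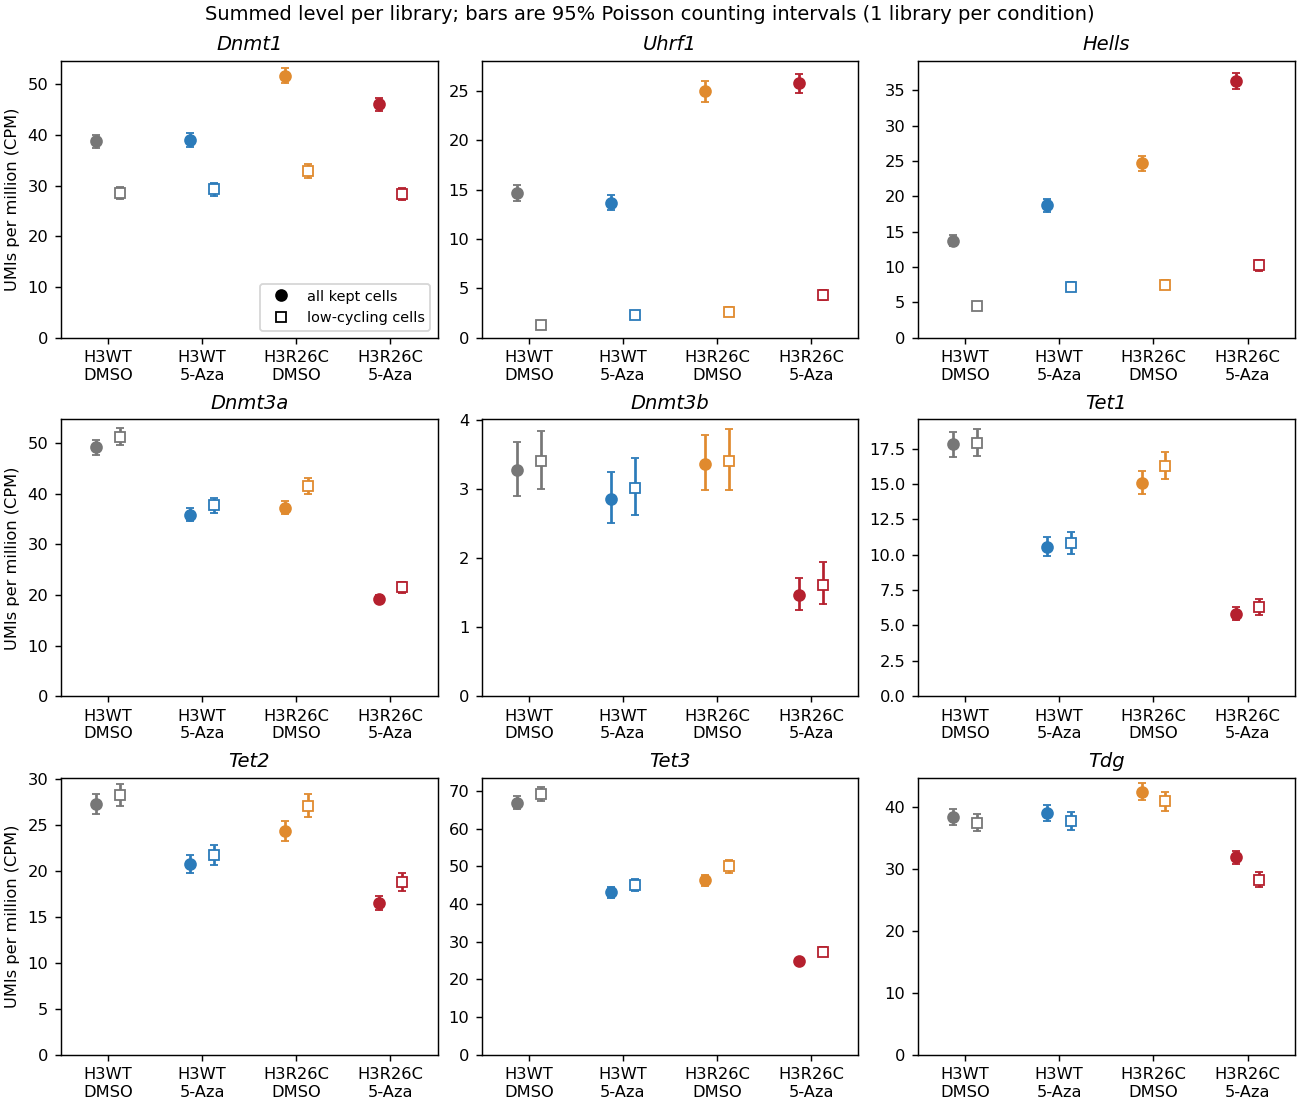
Level of each of the 9 genes in CPM on the vertical axis, with the 4 libraries along the horizontal axis. Filled circles are all kept cells, open squares low-cycling cells, and bars 95% Poisson counting intervals. Uhrf1 and Hells drop from circles to squares in every library, whereas Dnmt3a, Tet1, Tet2 and Tet3 stay near the same level and are lowest in H3R26C with 5-Aza.

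Dnmt1, Uhrf1 and Hells set the cycling cells apart in all 4 libraries, and no other member was 1.5-fold higher there. In cycling cells Dnmt1 was at 100.2 CPM in H3WT with DMSO, 90.6 in H3WT with 5-Aza, 129 in H3R26C with DMSO and 77.5 in H3R26C with 5-Aza. Uhrf1 was at 95.2, 73.8, 117 and 63.9 CPM in the same order. Hells was at 69.4, 79.7, 95.2 and 82.5 CPM. Against low-cycling cells of the same library, Dnmt1 was 2.73- to 3.93-fold higher, Hells 8.06- to 15.7-fold and Uhrf1 14.8- to 74.7-fold. These 3 of 9 members stand beside a background of 13.4%, 10.7%, 14.3% and 8.77% of tested genes that were at least 1.5-fold higher in cycling cells of the 4 libraries, in the order above. Tdg was higher in cycling cells by 1.17- to 1.35-fold, while Dnmt3a was at 0.483 to 0.709 of the low-cycling level, Tet2 at 0.488 to 0.767 and Tet3 at 0.616 to 0.761. Tet1 was at 0.624 to 0.961 and Dnmt3b at 0.669 to 0.930. Cycling cells were also deeper, with medians of 28679.5, 17157, 24742 and 17690 UMIs against 21898.5, 12788, 16088.5 and 12106 in low-cycling cells, in the order above. The part of depth in these ratios was not tested.

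The cells were also binned by their UMIs of the 5 gate genes after thinning to 5000 UMIs. From the bin with 0 to the bin with 8 or more, Dnmt1 went from 29.1 to 193 CPM in H3WT with DMSO and from 28.9 to 108 CPM in H3R26C with 5-Aza. Uhrf1 went from 1.79 to 194 CPM and from 6.34 to 89.0 CPM in the same libraries. The rise was therefore smaller for both genes in H3R26C with 5-Aza than in H3WT with DMSO. The top bin was also lower in H3WT with 5-Aza and in H3R26C with DMSO than in H3WT with DMSO, as given below.

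Among cells with 8 or more gate UMIs, those with the most RNA of cycling genes, Dnmt1 and Uhrf1 were lower with 5-Aza in both genotypes. Dnmt1 was at 0.741 of the DMSO level in H3WT (0.660 to 0.834) and at 0.628 in H3R26C (0.578 to 0.683). Uhrf1 was at 0.649 (0.575 to 0.732) and 0.622 (0.568 to 0.681). Hells was at 1.01 (0.887 to 1.16) and 0.896 (0.813 to 0.989). The share of all tested genes that were lower in this bin was not counted for any comparison. H3R26C was lower than H3WT in this bin for Uhrf1, Hells and Dnmt1. For Uhrf1 it was at 0.740 with DMSO (0.663 to 0.825) and 0.709 with 5-Aza (0.639 to 0.787), whereas over all kept cells Uhrf1 was higher in H3R26C. Hells was at 0.844 (0.740 to 0.964) and 0.746 (0.674 to 0.826), and Dnmt1 at 0.892 (0.802 to 0.992) and 0.756 (0.686 to 0.833). Whether these cells were in the same phases of the cycle was not tested. The bins held 70 and 214 H3WT cells and 205 and 555 H3R26C cells with DMSO and 5-Aza. With the cycling make-up of the libraries made equal, which averages over the bins, the H3R26C to H3WT ratio of Uhrf1 over all kept cells was 0.960 with DMSO and 1.03 with 5-Aza, and that of Hells 1.17 and 1.21, all inside 1.5-fold.

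**Figure D2:**
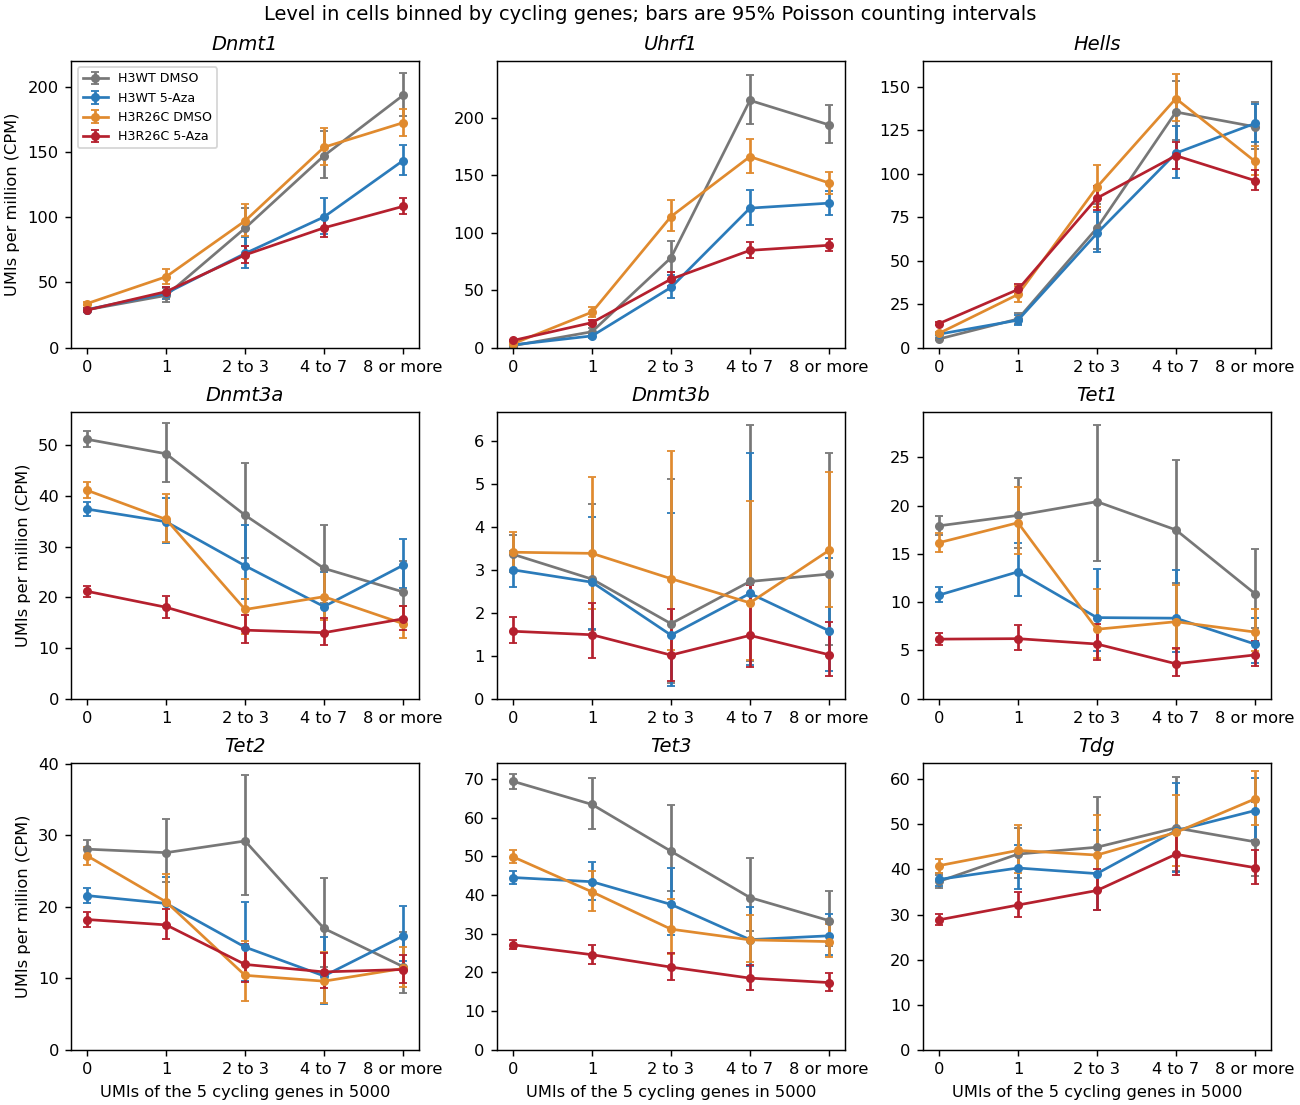
Level of each gene in CPM on the vertical axis in cells binned by their UMIs of the 5 cycling genes among 5000 UMIs, from 0 to 8 or more, with 1 line per library and 95% Poisson counting intervals. Dnmt1, Uhrf1 and Hells climb across the bins and Dnmt3a and Tet3 are lower in the upper bins. In the top bin Dnmt1 stands at 193 CPM in H3WT with DMSO and 108 CPM in H3R26C with 5-Aza.

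Dnmt3a (ENSMUSG00000020661, chromosome 12, 3806007 to 3914443, plus strand), a de novo methyltransferase active in somatic progenitors, was at 51.3 CPM in low-cycling H3WT cells with DMSO, 37.7 in H3WT with 5-Aza, 41.5 in H3R26C with DMSO and 21.5 in H3R26C with 5-Aza. From highest to lowest, each library differed from the next by more than counting error. The 5-Aza library was at 0.735 of DMSO in H3WT (0.699 to 0.772) and at 0.519 in H3R26C (0.487 to 0.553). H3R26C was at 0.809 of H3WT with DMSO (0.770 to 0.849) and at 0.571 with 5-Aza (0.536 to 0.609). Over all kept cells the levels were 49.2, 35.9, 37.3 and 19.14 CPM, where the 5-Aza ratio was 0.729 in H3WT and 0.513 in H3R26C.

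Dnmt3b (ENSMUSG00000027478, chromosome 2, 153649450 to 153687730, plus strand), the de novo enzyme best known from the early embryo, was rare. In low-cycling cells it was at 3.40 CPM in H3WT with DMSO, 3.02 in H3WT with 5-Aza, 3.40 in H3R26C with DMSO and 1.61 in H3R26C with 5-Aza, from 253, 214, 230 and 114 UMIs. The first 3 libraries differed by no more than counting error and the last was lower. H3R26C cells with 5-Aza were at 0.474 of their DMSO library (0.375 to 0.595) and at 0.534 of H3WT with 5-Aza (0.422 to 0.673). Dnmt3c, a rodent copy of Dnmt3b with which reads could be shared, had 1 to 18 UMIs per library in low-cycling cells, and the antisense genes Dnmt3aos and Dnmt3bos had at most 1. Dnmt3l, the inactive cofactor of the de novo enzymes and below the 1 CPM limit of the counts, was looked at after its values were seen. It had 10 and 7 UMIs with DMSO and 52 and 82 with 5-Aza in H3WT and H3R26C, or 0.134 and 0.104 CPM against 0.733 and 1.16 CPM. That is 5.46-fold higher in H3WT (2.74 to 12.05) and 11.2-fold in H3R26C (5.19 to 28.7), at levels that remain low.

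The 3 TET genes shared 1 order of libraries with Dnmt3a in low-cycling cells and in all kept cells. From highest to lowest it was H3WT with DMSO, H3R26C with DMSO, H3WT with 5-Aza and H3R26C with 5-Aza. In cycling cells only Tet1 kept this order, with the middle pair within counting error of each other. Dnmt3a, Tet2 and Tet3 there had H3WT with 5-Aza above H3R26C with DMSO, by more than counting error for Dnmt3a only. Tet1 (ENSMUSG00000047146, chromosome 10, 62804570 to 62908996, minus strand), a dioxygenase known from embryonic stem cells, was at 17.9 CPM in low-cycling H3WT cells with DMSO, 10.8 in H3WT with 5-Aza, 16.3 in H3R26C with DMSO and 6.29 in H3R26C with 5-Aza. Both 5-Aza libraries lay below both DMSO libraries. The 5-Aza library was at 0.604 of DMSO in H3WT (0.552 to 0.661) and at 0.386 in H3R26C (0.345 to 0.431), the lowest ratio of any member. H3R26C was at 0.909 of H3WT with DMSO (0.839 to 0.985) and at 0.581 with 5-Aza (0.516 to 0.654).

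Tet2 (ENSMUSG00000040943, chromosome 3, 133463679 to 133545139, minus strand), which lacks the CXXC DNA-binding domain of its relatives, had smaller differences. It was at 28.2 CPM in low-cycling H3WT cells with DMSO, 21.7 in H3WT with 5-Aza, 27.0 in H3R26C with DMSO and 18.8 in H3R26C with 5-Aza. The DMSO libraries differed by no more than counting error. With 5-Aza it was at 0.769 of DMSO in H3WT (0.720 to 0.822) and at 0.694 in H3R26C (0.646 to 0.745), both inside 1.5-fold. Over the 5 bins of cycling genes in all kept cells, its 5-Aza ratio ran from 0.492 to 1.37 in H3WT and from 0.672 to 1.15 in H3R26C.

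Tet3 (ENSMUSG00000034832, chromosome 6, 83362373 to 83459084, minus strand), the family member known for oxidizing the paternal genome of the zygote, was at 69.3 CPM in low-cycling H3WT cells with DMSO, 45.0 in H3WT with 5-Aza, 50.04 in H3R26C with DMSO and 27.4 in H3R26C with 5-Aza. All 4 libraries were apart by more than counting error. With 5-Aza it was at 0.649 of DMSO in H3WT (0.621 to 0.679) and at 0.547 in H3R26C (0.517 to 0.578). H3R26C was at 0.722 of H3WT with DMSO (0.692 to 0.755) and at 0.609 with 5-Aza (0.575 to 0.644).

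Tdg (ENSMUSG00000034674, chromosome 10, 82629828 to 82650799, plus strand), the glycosylase that completes active demethylation, did not share the order of the TET genes. In low-cycling cells it was at 37.5 CPM in H3WT with DMSO, 37.8 in H3WT with 5-Aza, 41.0 in H3R26C with DMSO and 28.3 in H3R26C with 5-Aza. Only the last library stood well below the rest. The 5-Aza ratio was 1.01 in H3WT (0.956 to 1.06) and 0.690 in H3R26C (0.651 to 0.731), and H3R26C was at 0.747 of H3WT with 5-Aza (0.705 to 0.792).

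**Figure D3:**
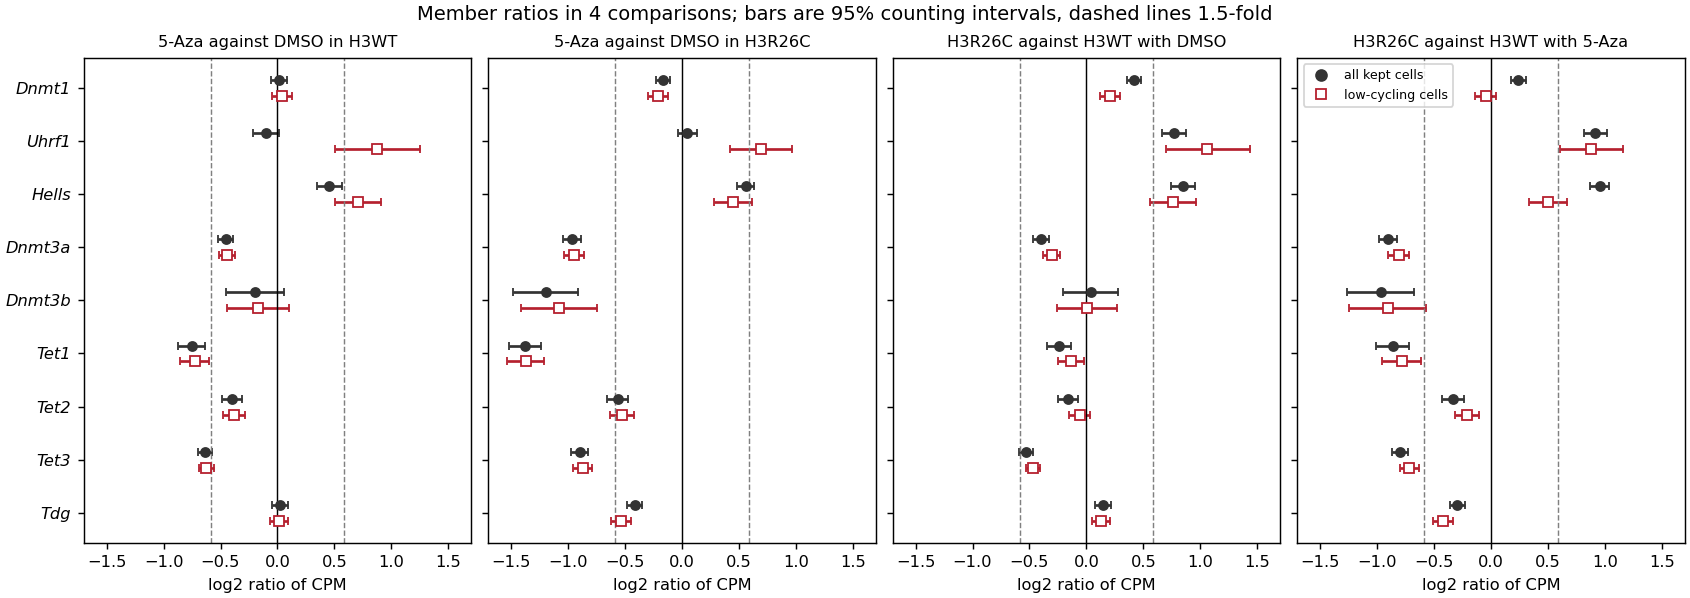
Log2 ratio of CPM on the horizontal axis for the 9 genes in each of the 4 comparisons, with filled circles for all kept cells, open squares for low-cycling cells, 95% counting intervals as bars and dashed lines at 1.5-fold. Tet1 and Tet3 lie below the lower line in both 5-Aza comparisons. Uhrf1 moves from -0.10 over all kept cells to 0.88 in low-cycling H3WT cells with 5-Aza.

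Counted together, 4 of 9 members differed by 1.5-fold in low-cycling H3WT cells with 5-Aza: Uhrf1 and Hells were higher, beside 10.4% of 12377 tested genes, and Tet1 and Tet3 lower, beside 2.93%. In H3R26C, Uhrf1 was higher, beside 14.4%, and Tet1, Dnmt3b, Dnmt3a and Tet3 were lower, beside 12.3%. The median log2 ratio of the members was -0.17 in H3WT and -0.54 in H3R26C, against 0.04 and -0.05 over all tested genes. Between genotypes with DMSO, Uhrf1 and Hells were higher in H3R26C, beside 6.5% of genes, and no member was lower, beside 3.68%. With 5-Aza, Uhrf1 was higher in H3R26C, beside 10.5%, and Dnmt3b, Dnmt3a, Tet1 and Tet3 were lower, beside 9.61%.

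Over all kept cells, with cycling cells included, no member was 1.5-fold higher with 5-Aza in either genotype (Hells, the nearest, was at 1.37 and 1.47), beside 10.5% and 14% of 12482 tested genes in H3WT and H3R26C. Among kept cells of 10000 to 20000 UMIs alone, Uhrf1 was at 3.63 and 3.64 of the DMSO level in H3WT and H3R26C, and Hells at 2.87 and 2.95. This range does not hold the cycling share of the libraries fixed. The median depth of cycling cells was 28680 and 24742 UMIs with DMSO in H3WT and H3R26C, above the range. With 5-Aza it was 17157 and 17690 UMIs, inside the range. The part of this in the 2 ratios of each gene was not tested. With the cycling make-up of the libraries made equal, Uhrf1 was at 0.670 of the DMSO level in H3WT and 0.716 in H3R26C. Hells was then at 1.06 and 1.10. Among the cycling bins, Uhrf1 was above the DMSO level only at 0 gate UMIs, at 1.42 in H3WT and 1.80 in H3R26C. Over all kept cells, the lower members were Tet1 and Tet3 in H3WT, beside 2.81%, and the same genes with Dnmt3a and Dnmt3b in H3R26C, beside 12.9%. Uhrf1 and Hells were higher in H3R26C with DMSO, beside 7.9% of genes, and no member was lower, beside 4.07%. With 5-Aza the same pair was higher in H3R26C, beside 11.3%, and Dnmt3b, Dnmt3a, Tet1 and Tet3 were lower, beside 11.2%. The 2 comparisons within a genotype and the 2 between genotypes share libraries, so their values are not separate evidence.

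The quotient of the 5-Aza ratios, H3R26C over H3WT, describes how the genotypes differed in low-cycling cells. It was 0.533 for Dnmt3b, 0.639 for Tet1, 0.684 for Tdg, 0.707 for Dnmt3a, 0.842 for Tet3 and 0.902 for Tet2. Among the maintenance genes it was 0.839 for Dnmt1, 0.837 for Hells and 0.883 for Uhrf1. All 9 values lay below 1, but over all kept cells those of Uhrf1 and Hells were 1.11 and 1.08. Among all tested genes, the 9 low-cycling values ran from percentile 3.90 for Dnmt3b to 43.0 for Tet2. Many other genes therefore also lay below 1. The difference between genotypes was not tested because each has 1 library per treatment.

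The order of libraries shared by Dnmt3a and the TET genes in low-cycling cells and in all kept cells is also the order of median UMIs per cell there. Low-cycling cells of at least 10000 and under 20000 UMIs were therefore compared alone. Tet3 was there at 72.6 CPM in H3WT with DMSO, 44.4 in H3WT with 5-Aza, 49.4 in H3R26C with DMSO and 26.7 in H3R26C with 5-Aza. Tet1 was at 18.8, 10.8, 16.8 and 5.81 CPM, and Dnmt3a at 55.4, 37.8, 43.1 and 21.0 CPM, in the same order. Tet2 was at 29.1, 21.2, 28.1 and 16.9 CPM. All 4 genes kept the order of libraries in this range of depth, and likewise at 20000 or more UMIs. From 10000 to under 20000 UMIs, the 5-Aza ratio of Tet1 in H3R26C was 0.345 (0.300 to 0.396). Under 10000 UMIs, where H3WT with DMSO had 110 cells and H3R26C with DMSO 265, Tet3 alone of the 4 kept the order. There, Dnmt3a was at 38.5 CPM in H3WT with DMSO, 46.6 in H3WT with 5-Aza, 55.2 in H3R26C with DMSO and 28.4 in H3R26C with 5-Aza. Its 5-Aza ratio in H3WT was 1.21 (0.842 to 1.80) and its genotype ratio with DMSO 1.43 (0.960 to 2.21), against 0.735 and 0.809 over all low-cycling cells. The genotype ratio with DMSO was also above 1 for Tet1 at 1.17 (0.632 to 2.32) and Tet2 at 1.13 (0.753 to 1.75), with intervals that include 1.

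Levels were also compared by depth within libraries. In H3R26C with 5-Aza, cells of 20000 or more UMIs had lower levels than cells under 10000 UMIs. The ratios were 0.480 for Tet1 (0.337 to 0.674), 0.376 for Tet2 (0.305 to 0.460), 0.607 for Tet3 and 0.553 for Dnmt3a. In H3WT with 5-Aza they were 0.767 for Tet1, 0.566 for Tet2, 0.859 for Tet3 and 0.640 for Dnmt3a. In H3R26C with DMSO they were 0.710, 0.504, 0.726 and 0.656 in the same order. All intervals of these libraries lay below 1. In H3WT with DMSO, the deepest library, the ratios were 1.01 for Tet1 (0.601 to 1.86), 0.699 for Tet2 (0.493 to 1.03), 0.884 for Tet3 (0.688 to 1.16) and 1.30 for Dnmt3a (0.916 to 1.92), all with intervals that include 1. The part of depth in the differences between libraries was not tested.

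Cells rich in Spp1, the gene of the secreted matrix protein osteopontin, formed 66.6% of low-cycling H3R26C cells with 5-Aza (5 or more Spp1 UMIs in 5000), against 21.4% in H3WT with 5-Aza, and 8.29% and 6.01% of H3R26C and H3WT cells given DMSO. This split was chosen after the values had been seen, and the share of all tested genes that differed by it was not counted. Dnmt3a was lower in Spp1-rich cells than in cells with no Spp1 UMI in every library: 40.4 against 53.0 CPM in H3WT with DMSO, 33.5 against 39.2 in H3WT with 5-Aza, 25.9 against 44.8 in H3R26C with DMSO and 18.6 against 30.9 in H3R26C with 5-Aza. Tet3 was likewise lower, at 0.638 to 0.807 of the level in cells with no Spp1 UMI. Tet1 was not separated by Spp1 in any library, with ratios of 0.858 to 1.06 whose intervals all include 1.

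Within bins of Spp1 the genes parted. The 5-Aza ratio of Tet1 in H3R26C was 0.382 to 0.417 over the 3 bins, close to its ratio over all low-cycling cells. That of Dnmt3a was 0.691 to 0.755 and no longer past 1.5-fold, and that of Tet2 was 0.856 to 0.980. Tet3 ran from 0.633 to 0.762 and Tdg from 0.627 to 0.732. Uhrf1, which was 1.62-fold higher over all low-cycling cells in this comparison, ran from 0.779 to 1.18 within the bins. Hells, 1.37-fold higher over all low-cycling cells, ran from 0.825 to 1.17. The part of the share of Spp1-rich cells in the Dnmt3a, Uhrf1 and Hells differences was not tested.

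**Figure D4:**
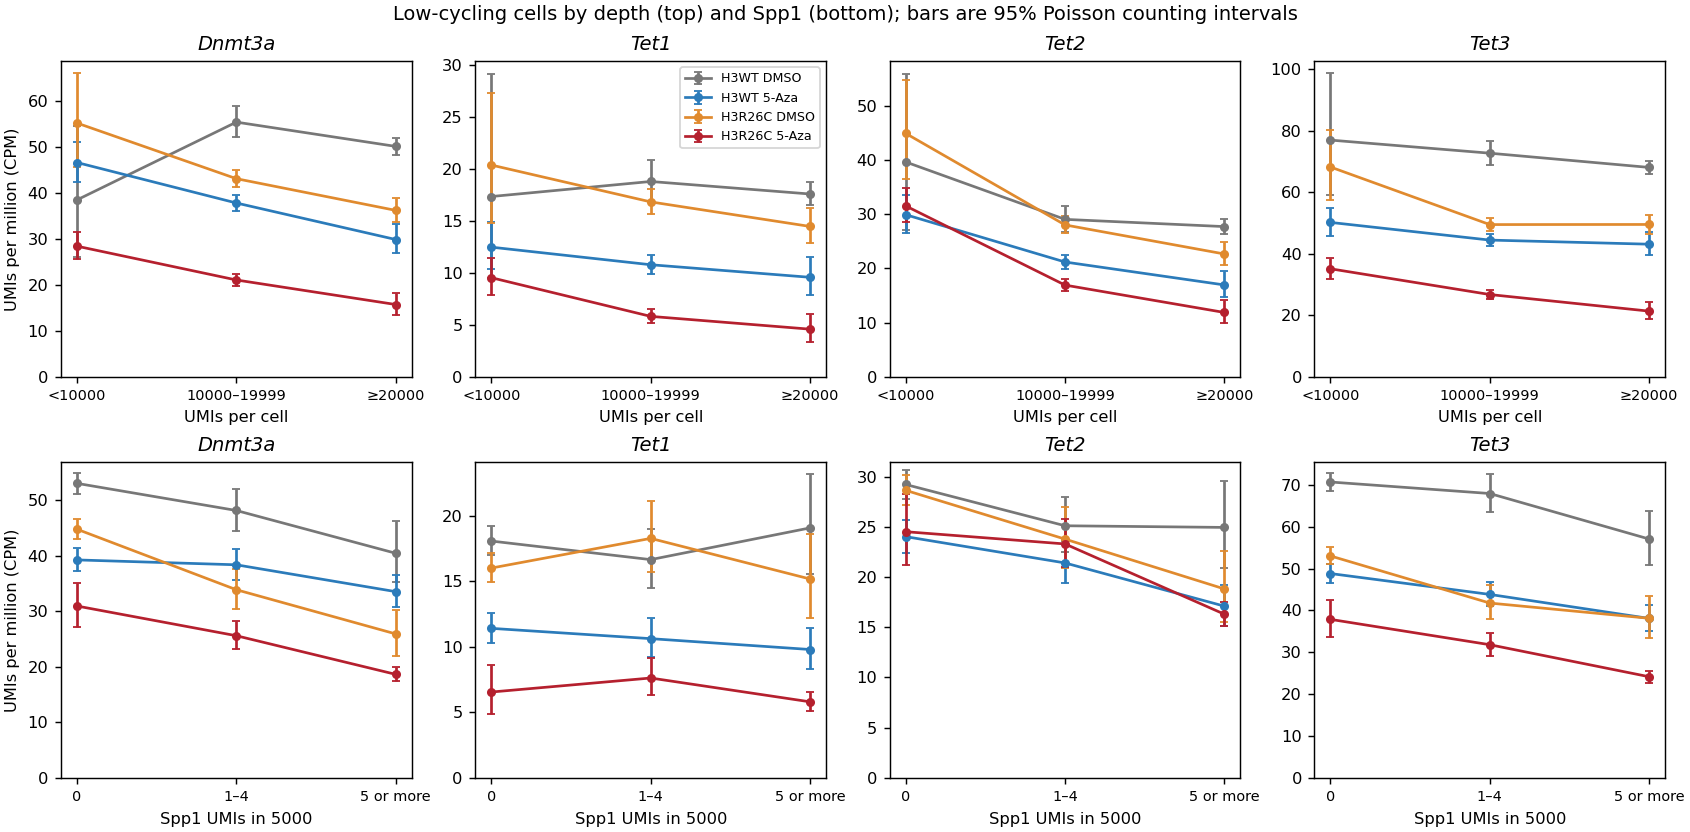
Levels of Dnmt3a, Tet1, Tet2 and Tet3 in CPM on the vertical axis in low-cycling cells, binned by UMIs per cell in the top row and by Spp1 UMIs among 5000 in the bottom row, with 1 line per library and 95% Poisson counting intervals. From 10000 to under 20000 UMIs Tet3 is at 72.6 CPM in H3WT with DMSO and 26.7 CPM in H3R26C with 5-Aza. Tet1 is flat across the Spp1 bins while Dnmt3a declines.

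Low-cycling cells were also split by the summed UMIs of 10 interferon-stimulated genes, also chosen after the values were seen. In H3R26C with 5-Aza, 2281 low-cycling cells had 10 or more such UMIs in 5000. Tet3 was at 24.1 CPM in them and at 36.1 CPM in the 542 cells with 0 to 1, a ratio of 0.668 (0.579 to 0.774). Hells was at 0.494 (0.392 to 0.625), Uhrf1 at 0.608 (0.425 to 0.884), Tet2 at 0.703 (0.588 to 0.844) and Tdg at 0.733 (0.635 to 0.848), while the intervals of the other 4 members included 1. In H3WT with 5-Aza, where 126 cells had 10 or more, Dnmt1 was at 0.601 (0.406 to 0.859) and Tet3 at 0.746 (0.568 to 0.963). The intervals of the other members, Uhrf1 and Hells among them, included 1. The share of all tested genes that were lower in this split was not counted, and depth was not held equal between the groups of cells. Differences between genes or libraries in these ratios were not tested.

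Cells with UMIs of at least 6 of the 12 muscle markers were found only after 5-Aza among low-cycling cells, 210 in H3WT and 258 in H3R26C. With DMSO there were 0 of 3310 H3WT and 0 of 4076 H3R26C cells, which allows shares of up to 0.0906% and 0.0736%. Dnmt1 was at 17.4 CPM in these H3WT cells against 30.1 CPM in cells outside the muscle and adipocyte gates, a ratio of 0.578 (0.429 to 0.763). In H3R26C it was at 16.4 against 29.2 CPM, a ratio of 0.563 (0.437 to 0.715). Dnmt3a was likewise lower, at 0.723 in H3WT (0.573 to 0.903) and 0.741 in H3R26C (0.574 to 0.944). Tet1 was at 0.647 (0.398 to 0.996) and 0.617 (0.356 to 0.999). Tet3 was at 0.780 in H3WT (0.636 to 0.949), and Uhrf1 at 0.420 in H3R26C (0.180 to 0.838). Tet2 went the other way in H3WT, at 34.7 against 21.2 CPM (ratio 1.64, 1.33 to 2.00), and was at 1.21 (0.975 to 1.49) in H3R26C. Tdg was at 1.21 in H3R26C (1.01 to 1.43). The remaining member ratios had intervals that include 1. The share of all tested genes was not counted for this gate. Leaving out the muscle and adipocyte gates changed no count of members in any comparison by more than 1.5 times.

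The genes whose levels followed each member most closely were sought over 20 profiles, the 5 cycling bins of each library, among 8604 genes. The profiles share libraries and bins, so Pearson's r is a description. Uhrf1 was nearest to Chaf1b (r = 0.996), Mcm5 (0.992) and Pclaf (0.991), and Hells to Uhrf1 (0.988), Gmnn (0.988) and Gins2 (0.987). Dnmt1 was near to Dtymk (0.989) and Anapc15 (0.988). Chaf1b, Mcm5, Pclaf, Gmnn and Gins2 act in DNA replication or its control, and Dtymk makes nucleotides for it. Dnmt3a was nearest to Zfp423 (0.962), Rbl2 (0.956) and Nmnat2 (0.954), and Tet3 to Col27a1 (0.985), Btg2 (0.976) and Fam43a (0.975). Tet1 was nearest to Btg2 (0.947), Ilrun (0.945) and Zfp618 (0.939), and Tet2 to 2510009E07Rik (0.942), Rftn2 (0.932) and Ammecr1l (0.923). The likest genes of Dnmt3b were Irx2 (0.895), Gnptab (0.885) and Zmynd11 (0.882), and those of Tdg were Cad (0.911), Slf2 (0.903) and Maz (0.897). Between members, r was 0.941 for Dnmt3a and Tet3, 0.912 for Tet1 and Tet3, and -0.719 for Dnmt3a and Hells.

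Lists of genes that work with the members were counted in low-cycling cells, against the shares of all tested genes given above. None of the 13 tested methylation partners, among them Pcna and Uhrf2, the paralog of Uhrf1, passed 1.5-fold in any comparison, and their median log2 ratio with 5-Aza was -0.23 in H3WT and -0.37 in H3R26C. Of 10 readers of methylated CpG, 2 were lower with 5-Aza in H3WT, led by Mbd4 at 0.659 (0.505 to 0.856), and 1 in H3R26C, Mbd6, at 0.633 (0.588 to 0.681), with medians of -0.12 and -0.33. Over all tested genes, 2.93% were lower in H3WT and 12.3% in H3R26C. Of 16 tested demethylation partners, 3 were lower with 5-Aza in H3R26C, beside the same 12.3%, led by the DNA break sensor Parp1 at 0.550 (0.518 to 0.584). The other two were Idh1 and Idh2, which make the 2-oxoglutarate that TET enzymes consume, each at 0.638. The medians of this list were -0.00 and -0.06. Gadd45g, a stress gene linked to DNA repair, was the only partner past 1.5-fold between genotypes, at 0.491 with DMSO (0.476 to 0.506) and 0.528 with 5-Aza (0.513 to 0.542).

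The next list holds genes linked to the methyl donor S-adenosylmethionine and its turnover, not only genes that make it. Of its 7 tested genes, 3 were lower with 5-Aza in H3R26C, beside 12.3% of all tested genes. Ahcyl2, a relative of S-adenosylhomocysteine hydrolase, was at 0.415 (0.384 to 0.449), at 13.01 against 31.3 CPM. Ahcy, which had 65 and 116 UMIs, was at 0.535, and Mat2a at 0.624. Ahcyl2 and Ahcy were also lower in H3R26C than in H3WT with 5-Aza, at 0.464 and 0.615. In H3WT none of the 7 passed 1.5-fold, and Ahcyl2 was at 0.774. The medians of the 7 log2 ratios were -0.19 in H3WT and -0.38 in H3R26C, against 0.04 and -0.05 over all tested genes.

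Of 14 tested genes for the uptake and metabolism of cytidine analogs, 1 was higher with 5-Aza in H3WT and 4 in H3R26C, beside 10.4% and 14.4% of all tested genes. Cda, cytidine deaminase, which inactivates 5-Aza, was at 8.95 CPM in low-cycling H3WT cells with DMSO, 18.2 in H3WT with 5-Aza, 15.5 in H3R26C with DMSO and 77.7 in H3R26C with 5-Aza. It was higher with 5-Aza by 2.03-fold in H3WT (1.85 to 2.24) and by 5.01-fold in H3R26C (4.69 to 5.36). The genotype ratio was 1.73 with DMSO (1.57 to 1.91) and 4.26 with 5-Aza (4.01 to 4.53). The 3 others in H3R26C were Uck2, the kinase that first phosphorylates 5-Aza, higher by 2.19-fold, the nucleoside transporter Slc29a1 by 2.04-fold and Dck, the deoxycytidine kinase, by 1.54-fold. In H3WT none of these 3 passed 1.5-fold. No gene of the list was lower by 1.5-fold in any comparison, and the list's median log2 ratio was 0.16 in H3WT and 0.04 in H3R26C.

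**Figure D5:**
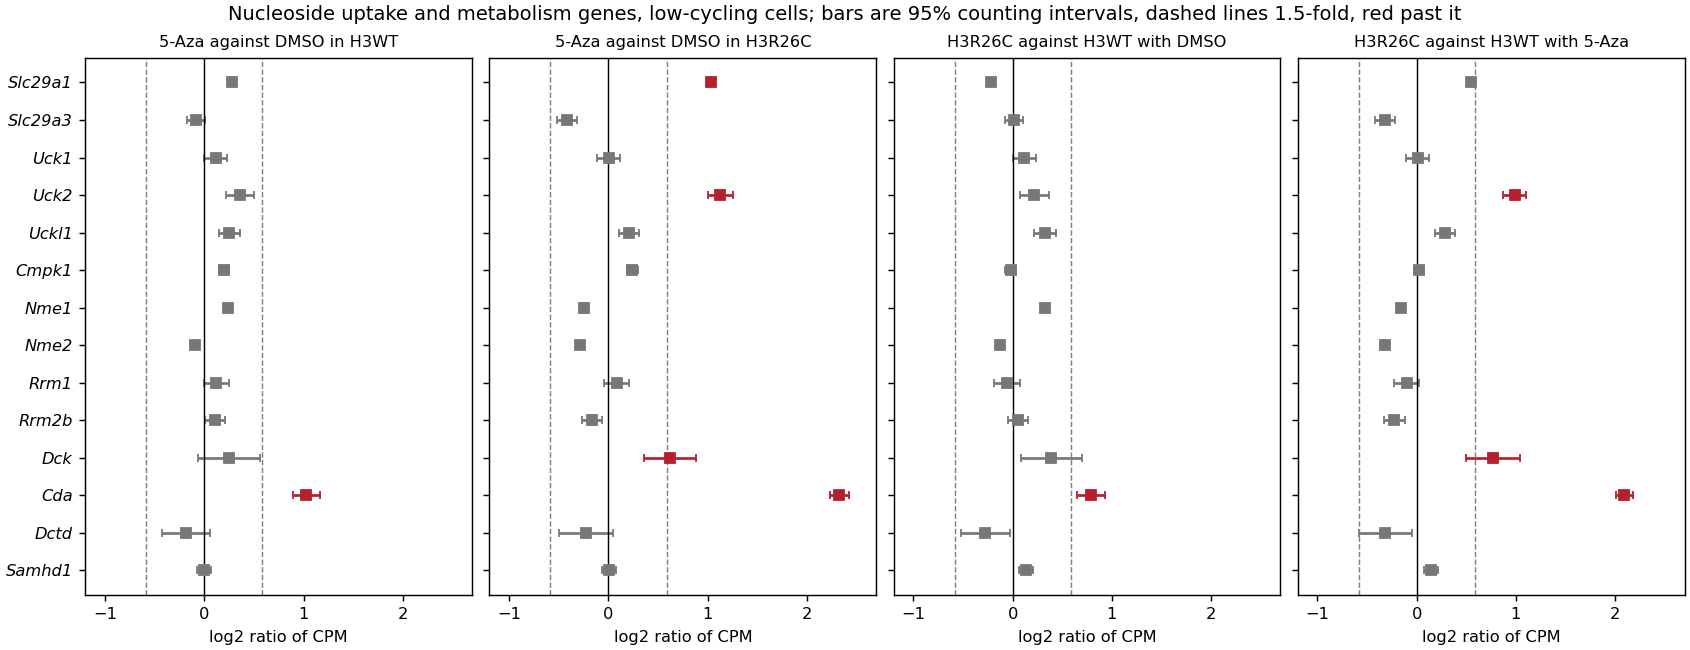
Log2 ratio of CPM on the horizontal axis for the 14 tested genes of nucleoside uptake and metabolism in low-cycling cells, 1 panel per comparison, with 95% counting intervals, dashed lines at 1.5-fold and red where a gene is past it. Cda is past the line in all 4 panels, at 2.33 with 5-Aza in H3R26C.

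Of the 16 germline genes, a class often silenced by DNA methylation, only Tex19.1 had a mean of at least 1 CPM in low-cycling cells, and Tex19.1 and Tuba3b over all kept cells. Tex19.1 had 0 UMIs in both DMSO libraries of low-cycling cells and 357 and 802 UMIs with 5-Aza in H3WT and H3R26C, or 5.03 and 11.3 CPM. With each 0 set to 3 counts, the level was 125-fold higher in H3WT and 255-fold higher in H3R26C, values that depend on that setting. Tuba3b, a testis tubulin that could share reads with its near copy Tuba3a, had 1 UMI in each DMSO library over all kept cells and 101 and 444 UMIs with 5-Aza in H3WT and H3R26C. Of these UMIs 91 and 393 were in cycling cells. Both Tex19.1 and Tuba3b passed the 1 CPM limit only through their 5-Aza libraries. A high 5-Aza ratio follows from that limit and says nothing of the list as a whole. The other germline genes fell below the limit and have no ratio here. Of 10 tested S-phase genes outside the gate, 1 was higher and 1 lower with 5-Aza in low-cycling H3WT cells, and 2 were higher and 0 lower in H3R26C, with medians of 0.18 and -0.00, beside 10.4% higher and 2.93% lower of all tested genes in H3WT and 14.4% and 12.3% in H3R26C. Cdc6, which loads the replicative helicase, was higher by 3.46-fold in H3WT (2.28 to 5.40) and by 4.70-fold in H3R26C (3.58 to 6.27), and Dtl was at 0.616 in H3WT (0.520 to 0.729).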

How the data were processed

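Droplet RNA counts of 4 libraries were analysed. The deposited files hold whole-number UMI counts, filtered to cell barcodes and not normalized, which came from the authors' runs of Cell Ranger on mm10 (version 6.1.0 in the file headers). Per the labels' processing notes Seurat 4 was also used; its output is not used here. The cell filter follows the study. No doublets were removed. Counts were summed per library and cell set and scaled to CPM; ratios carry exact conditional binomial intervals and levels exact Poisson intervals at 95%. A mean over libraries of 1 CPM or more was required for a gene to enter the counts past 1.5-fold, and counts under 3 were set to 3 in ratios. For bins, each cell was thinned to 5000 UMIs (seed 1). Python 3.11.15, numpy 2.4.6, scipy 1.17.1, pandas 2.3.3 and matplotlib 3.10.9 were used, and the ratio, its interval and the calls were tested on simulated data. Positions come from GENCODE M21 (GRCm38), matched by identifier for 99.6% of genes, and promoter letters from RefSeq.

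The 9 members were named in every comparison. For each further list the counts past 1.5-fold are given, with the gene of largest rise and fall by name; other names in these lists (Dnmt3l, Tuba3b, Idh1, Idh2, Ahcy, Mat2a, Uck2, Slc29a1, Dck) were chosen after their values were seen. For each member the 3 genes of highest Pearson's r were named, except 1 gene that is not reported here, on log2(CPM + 1) among genes of at least 10 CPM. The members and lists were chosen with earlier results of these data known. Alternatives changed the cell filter, the scaling, the pseudocount, the depth of cells, the gate, the fold and the cells left out. The number of columns with no sample was 0.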

Additional observations from a re-analysis of the deposited data

How the results depend on the processing

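No paired analysis was possible because a condition is a single library, and for that reason no library could be left out. Of 104 recounts of the members past 1.5-fold, 88 stayed within 1.5 times the reported count. The share of all tested genes was not counted under these alternatives, so the recounts below have no background beside them. Raising the limit to 2-fold left 0 of 2 members with 5-Aza in H3WT over all kept cells (0 of 4 in low-cycling cells), 2 of 4 in H3R26C (2 of 5), 0 of 2 between genotypes with DMSO (1 of 2) and 0 of 6 with 5-Aza (0 of 5). Counting members from a level 25% higher in either group gave 5 with 5-Aza in H3WT, 7 with 5-Aza in H3R26C and 5 between genotypes with DMSO over all kept cells, and 8 in low-cycling H3R26C cells with 5-Aza. Cells of 10000 to 20000 UMIs gave 4 in H3WT and 7 in H3R26C with 5-Aza over all kept cells, with Uhrf1 and Hells now past the limit upward and, in H3R26C, Tet2 downward. The median depth of cycling cells lay above this range with DMSO and inside it with 5-Aza. The gate set after thinning gave 2 in low-cycling H3WT cells with 5-Aza. It put Hells past the limit with 5-Aza in H3R26C and between genotypes with 5-Aza. An equal cycling make-up gave 0 between genotypes with DMSO, where the Uhrf1 ratio turned to 0.960. Of 30 member ratios past 1.5-fold, the other 29 kept their direction under the alternatives in the cell filter, scaling, pseudocount, depth, gate and cells left out, and 23 also stayed past 1.5-fold. Within the bins chosen after the values were seen, some ratios of Uhrf1 in low-cycling cells turned below 1. Under 10000 UMIs, where H3WT with DMSO has 110 cells, they were 0.382 (5-Aza in H3WT) and 0.748 (genotype with DMSO). Both set an H3WT DMSO count under 3 to 3. The levels there were 2.48 CPM in H3WT with DMSO, 1.42 in H3WT with 5-Aza and 2.78 in H3R26C with DMSO. By these levels the genotype ratio with DMSO did not turn. Uhrf1 was at 0.961 (genotype with 5-Aza) at 1 to 4 Spp1 UMIs. With 5-Aza in H3R26C it was at 0.779 at 5 or more Spp1 UMIs and 0.856 at 10 or more interferon UMIs. Under 10000 UMIs, Dnmt3a, not past the limit, also turned to 1.21 (5-Aza in H3WT) and 1.43 (genotype with DMSO). Dnmt3b between genotypes with 5-Aza turned to 1.03 at 10 or more interferon UMIs, with an H3WT count under 3 set to 3. The levels there were 1.14 CPM in H3WT and 1.75 in H3R26C. The cause of these turns was not tested. With 1 library per condition, the intervals cover only counting error, which is widest for Dnmt3b and for Uhrf1 in low-cycling cells.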
